A study of Mus musculus with 21 samples.

Results

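The cytochrome P450 genes of families 1 to 4 were examined in RNA sequencing data from mouse colon. Members were the rows of the gene count table whose symbol starts with Cyp, followed by a family number from 1 to 4, a subfamily letter and a gene number. The table held 75 such genes among 24062, of which 3 belong to family 1, 48 to family 2, 7 to family 3 and 17 to family 4. The rule uses symbols and no measured value, although the families were picked for description with earlier results of these data known.

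Mice of the C57BL/6 strain were wild-type or carried App NL-G-F, a knock-in of Alzheimer's disease mutations into the gene of the amyloid precursor. The 21 libraries form 7 groups of 3, namely normal colon of wild-type males, knock-in males, wild-type females and knock-in females, and tumours of wild-type males, knock-in males and wild-type females. Tumours were labelled AOM/DSS, a regimen of the carcinogen azoxymethane and dextran sulfate sodium, an irritant that causes colitis. The labels call the normal libraries untreated, while the series text speaks of tissue beside tumours or of colon in which none had formed. Tumours of knock-in females were not analysed here, and the labels give neither ages nor whether libraries of a group came from separate animals, so p-values measure only the spread between libraries. The series asks how the App mutant background and sex bear on the outcome of AOM/DSS treatment.

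Cytochromes P450 are haem enzymes of the endoplasmic reticulum that insert an oxygen atom into drugs, carcinogens, steroids and fatty acids, with electrons supplied by P450 reductase. Family 1 is classically induced through the aryl hydrocarbon receptor, families 2 and 3 carry most drug oxidation in liver and gut, and family 4 hydroxylates the ends of fatty acids and leukotrienes. Cyp2e1 is known as the enzyme that oxidises azoxymethane towards its DNA-methylating form, mainly in the liver.

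Library totals ran from 3414123 to 26174008 counts, and 3 counts, taken as the floor of measurement, corresponded to 0.127 to 0.873 CPM (counts scaled for library size, with TMM). The differentiated colonocyte markers summed to between 903 and 5670.3 CPM in the 12 normal libraries, and to between 319 and 1344.5 CPM in the 9 tumour libraries. Smooth muscle markers summed to between 1503 and 7983 CPM in normal colon and between 164 and 849.8 CPM in tumours. Of the hepatocyte markers, Fgb had no counts in any library and Apoa1 reached at most 0.0845 CPM, whereas Alb and Ttr were detected in every library. In bulk tissue, fewer cells of a type and less RNA per cell cannot be told apart.

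Of the 75 members, 33 passed the filter on low counts and were tested, 34 had counts but stayed below it, with at most 44 counts in a library, and 8 had no count in any library. The 33 tested genes held 99.68% of all counts of the members. Cyp2d genes held 29.6% of these counts, Cyp2c genes 26.5%, Cyp4f genes 16.1%, Cyp2s1 8.61%, Cyp3a genes 6.96% and Cyp2j genes 4.55%. The untested genes include the main drug-oxidising Cyp3a11 of mouse liver, which had no count, and all 5 Cyp4a genes, which had 62 counts together.

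Many members lie in tandem arrays of similar copies, and the deposited counts do not say how reads that fit several copies were assigned. The coding stretch around the haem-binding cysteine is shown for 5 Cyp2d and 4 Cyp2c genes to show how many bases separate them there. Capitals mark bases that differ from the first sequence of each set, and the sequences come from GENCODE M21 transcripts on GRCm38.
Cyp2d10: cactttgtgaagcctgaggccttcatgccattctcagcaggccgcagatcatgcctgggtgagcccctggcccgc
Cyp2d9: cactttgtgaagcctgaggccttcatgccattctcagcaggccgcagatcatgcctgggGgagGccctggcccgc
Cyp2d34: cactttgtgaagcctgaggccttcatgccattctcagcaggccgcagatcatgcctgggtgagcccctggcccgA
Cyp2d22: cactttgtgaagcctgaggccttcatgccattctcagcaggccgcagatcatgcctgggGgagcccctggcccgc
Cyp2d12: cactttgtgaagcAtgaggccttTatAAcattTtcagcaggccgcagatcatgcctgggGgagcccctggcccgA
Cyp2c68: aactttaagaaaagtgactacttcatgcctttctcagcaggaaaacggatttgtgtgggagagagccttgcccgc
Cyp2c67: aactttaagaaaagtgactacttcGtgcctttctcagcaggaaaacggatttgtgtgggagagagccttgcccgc
Cyp2c69: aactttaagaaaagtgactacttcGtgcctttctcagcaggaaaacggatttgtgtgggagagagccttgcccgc
Cyp2c55: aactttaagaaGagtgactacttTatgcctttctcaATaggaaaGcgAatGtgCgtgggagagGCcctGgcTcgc
Over these 75 bases Cyp2d34 and Cyp2d22 each differed from Cyp2d10 at 1 base and Cyp2d9 at 2, while Cyp2c67 and Cyp2c69 each differed from Cyp2c68 at 1 base and Cyp2c55 at 12. Across the longest transcripts, the share of 75-base windows found in another Cyp gene was 26.6% for Cyp2d10, 16.7% for Cyp2d9, 28.5% for Cyp2c68, 36.01% for Cyp2c67 and 43.2% for Cyp2c69. It was 2.05% for Cyp2d34, 1.87% for Cyp2d22, 1.82% for Cyp2d12 and 0 for Cyp2c55, Cyp2s1, Cyp3a13, Cyp4f40, Cyp2j6, Cyp2u1, Cyp2e1 and Cyp1b1. Levels of Cyp2d10, Cyp2d9, Cyp2c67, Cyp2c68, Cyp2c69 and Cyp4f16 (16.1%) are therefore uncertain as to which copy the reads came from. To a lesser extent the same holds for Cyp2c65 (11.4%, shared with Cyp2c66) and Cyp4b1 (7.15%). Cyp2d13 is a further uncertain case, since RefSeq lists it as a transcribed pseudogene of the same array (GRCm38.p6), and its symbol had no match in GENCODE M21.

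The Cyp2d array lies on chromosome 15, from Cyp2d22 (chr15:82370527-82380260, minus strand) to Cyp2d26 (chr15:82790101-82794294, minus strand), with Cyp2d34 between them (chr15:82615965-82620946, minus strand). The Cyp2c genes lie on chromosome 19, Cyp2c55 at chr19:39007019-39042693 (plus strand) and Cyp2c68 at chr19:39688834-39741054 (minus strand). Cyp4f14 lies on chromosome 17 (chr17:32905070-32917342, minus strand), Cyp3a13 on chromosome 5 (chr5:137892932-137921619, minus strand) and Cyp2s1 on chromosome 7 (chr7:25802475-25816913, minus strand). All are protein-coding genes in GENCODE M21 on GRCm38.

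Levels were compared between genes per kilobase of longest transcript. In normal colon Cyp2c55, a fatty acid oxidase known for its abundance in the large intestine, was highest at 188.8 CPM per kilobase, as the mean of the 4 normal groups. Cyp2d34 followed at 101.1, Cyp2c68 at 39.4, the epithelial P450 Cyp2s1 at 37.6, Cyp2d10 at 36.7 and Cyp3a13 at 31.8 CPM per kilobase. In tumours the order differed, with Cyp2d34 at 22.9, Cyp2f2 at 13.95, Cyp4f16 at 13.2 and Cyp2j6 at 12.7, and Cyp2c55 at 8.74 CPM per kilobase. The place of Cyp2f2 rests on knock-in male tumour replicate 2, at 154 CPM, against 0.136 to 53.9 CPM in the other 8 tumour libraries. The heat map shows the 33 tested genes in every library.

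**Figure D1:**
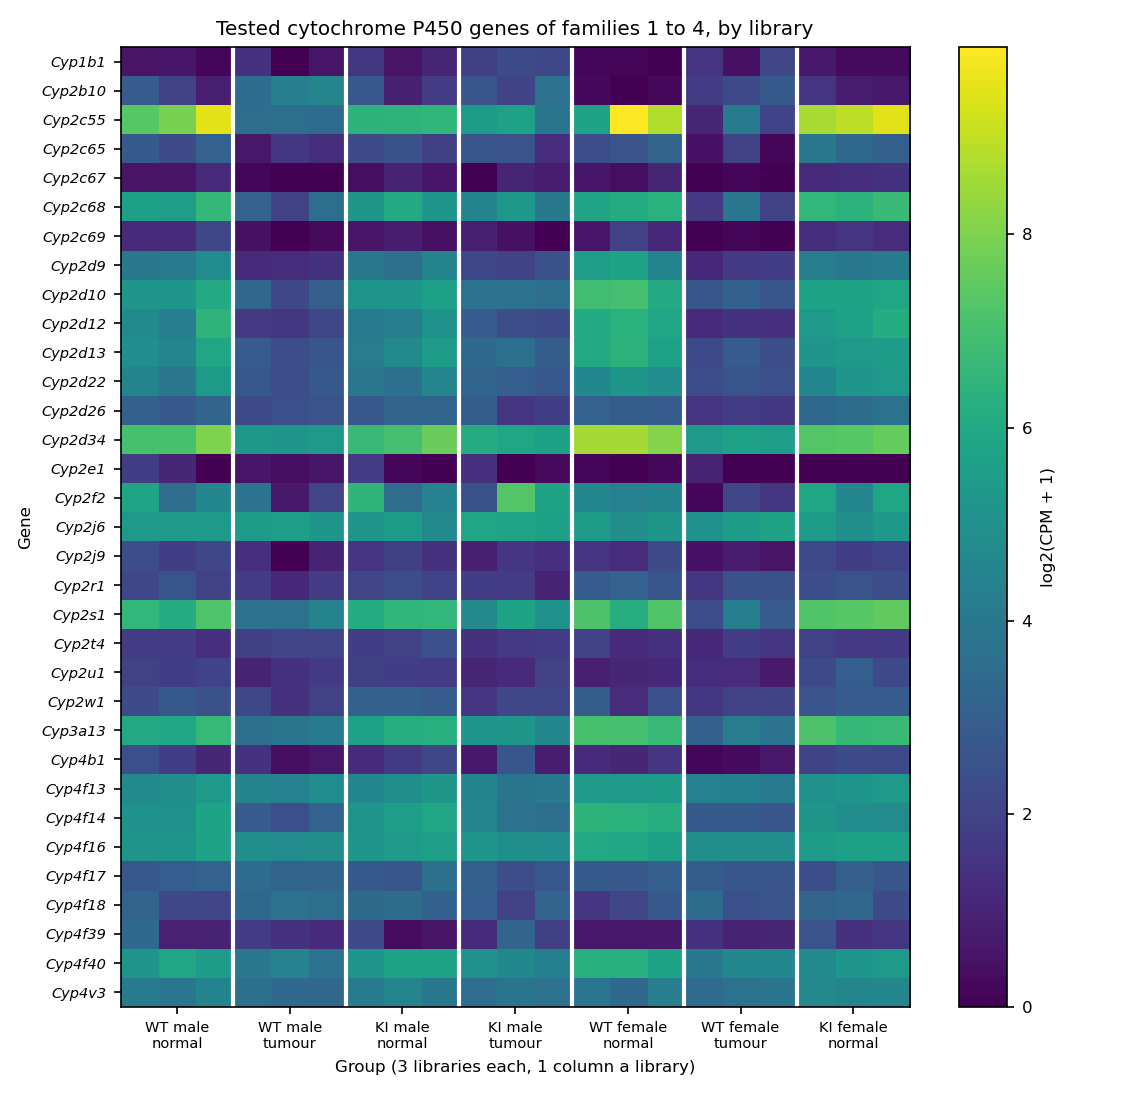
Levels of the 33 tested P450 genes (rows) in the 21 libraries (columns, 3 per group), coloured by log2(CPM + 1). The upper Cyp2c and Cyp2d rows are brighter in the normal groups than in the tumour groups, with the darkest tumour columns in the wild-type groups.

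Summed over all members, P450 transcripts made up 938, 919.6 and 1951 CPM in the 3 wild-type male normal libraries and 296, 273 and 311 CPM in the male tumours of that genotype. For knock-in males the sums were 777, 846 and 984 CPM in normal colon and 464, 627 and 407 CPM in tumours. In females they were 1475, 2374 and 1625 CPM in wild-type normal colon, 219, 307 and 266 CPM in wild-type tumours and 1450.0, 1496 and 1872 CPM in knock-in normal colon. Every tumour library lay below every normal library, and every knock-in male tumour lay above every wild-type tumour of either sex. Cyp2c55 made up much of the spread in normal colon, since it ranged from 52.8 to 983 CPM there.

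Tumours were compared with normal colon first. Where normal colon was untreated, tumour state and AOM/DSS exposure cannot be told apart in any comparison of tumour with normal colon. In wild-type males 18 of the 33 tested members fell and 1 rose (57.6% called), where 35.7% of all 15936 tested genes were called, 19.3% lower and 16.5% higher. In wild-type females 20 fell and 2 rose (66.7% called), against 49.1% of all genes, 24% lower and 25% higher. In knock-in males 12 fell and 1 rose (39.4% called), against 20.4% of all genes, 9.97% lower and 10.4% higher. The median log2 fold change of the tested members was -1.57 in wild-type males, -2.15 in wild-type females and -0.67 in knock-in males, and that of all genes 0.01 in each. These tests are edgeR quasi-likelihood tests with Benjamini-Hochberg adjustment over all tested genes at 0.05, and adjusted p-values below are from them. Differentiated colonocyte markers fell in the same comparisons (6 of 7 tested in wild-type males, 7 of 7 in wild-type females, 5 of 7 in knock-in males), as did smooth muscle markers (6 of 6 in each), and their part in the P450 results was not tested. Without normal replicate 3 or tumour replicate 3, 13 members were called in wild-type males, and without normal replicate 3, 6 were called in knock-in males.

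In all 3 comparisons 9 members fell, namely Cyp2d9, Cyp2d10, Cyp2d12, Cyp2d13, Cyp2d22, Cyp2d34, Cyp3a13, Cyp4f14 and Cyp4f40. The share of all genes lower in all 3 was not counted. Most of the 9 belong to the Cyp2d array, in which copies share sequence. The Cyp2d genes are a large mouse family related to the human drug oxidase CYP2D6. Cyp2d34, the most abundant of them, was at 132, 131 and 257 CPM in wild-type male normal colon and 38.3, 35.8 and 39.05 CPM in the tumours. In wild-type females it was at 387, 392 and 272 CPM and 40.3, 50.2 and 45.3 CPM, and in knock-in males at 102, 127 and 203 CPM and 70.6, 56.7 and 49.9 CPM. Normal and tumour libraries did not overlap in any of the 3 backgrounds. The log2 fold changes were -2.20 (SE 0.27, adjusted p 2.02e-05) in wild-type males, -2.95 (SE 0.27, adjusted p 4.24e-07) in wild-type females and -1.28 (SE 0.26, adjusted p 0.00425) in knock-in males.

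Cyp2d9, which in mouse liver is a male-enriched testosterone hydroxylase, was at 15.2, 16.5 and 27.9 CPM in wild-type male normal colon and 1.30, 1.46 and 1.75 CPM in tumours. Wild-type female normal colon held 45.2, 52.8 and 21.7 CPM and the tumours 1.22, 2.22 and 2.50 CPM. Knock-in male normal colon held 15.2, 11.8 and 20.7 CPM and the tumours 3.47, 3.14 and 4.60 CPM. Again no tumour library reached a normal one. Cyp2d9 fell by 3.71 (SE 0.37), 4.31 (SE 0.36) and 2.10 (SE 0.32) on the log2 scale in wild-type males, wild-type females and knock-in males, with edgeR adjusted p of 4.59e-06, 1.27e-07 and 0.00176. Cyp2d12 had log2 fold changes of -4.07, -5.44 and -2.24. Cyp2d10 had -2.71, -4.08 and -1.69, Cyp2d13 -2.74, -3.82 and -1.62, and Cyp2d22 -2.27, -2.72 and -1.20 in the same order. Without wild-type male normal replicate 3 the Cyp2d12 value was -3.11, and without libraries 152 to 154, which hold wild-type female tumour replicates 2 and 3, the Cyp2d9 value in wild-type females was -5.00. Cyp2d26 passed in wild-type females (-1.71) and knock-in males (-0.99, adjusted p 0.0375), and had -0.76 in wild-type males (adjusted p 0.0813). In knock-in males the Cyp2d22 call was lost without normal replicate 3, tumour replicate 2 or tumour replicate 3, and the Cyp2d26 call without any of these or normal replicate 2. Both calls were also lost with only the compared groups, with an offset for GC content and length, and without libraries 152 to 154. Without tumour replicate 1 the Cyp2d26 value was -1.76.

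**Figure D2:**
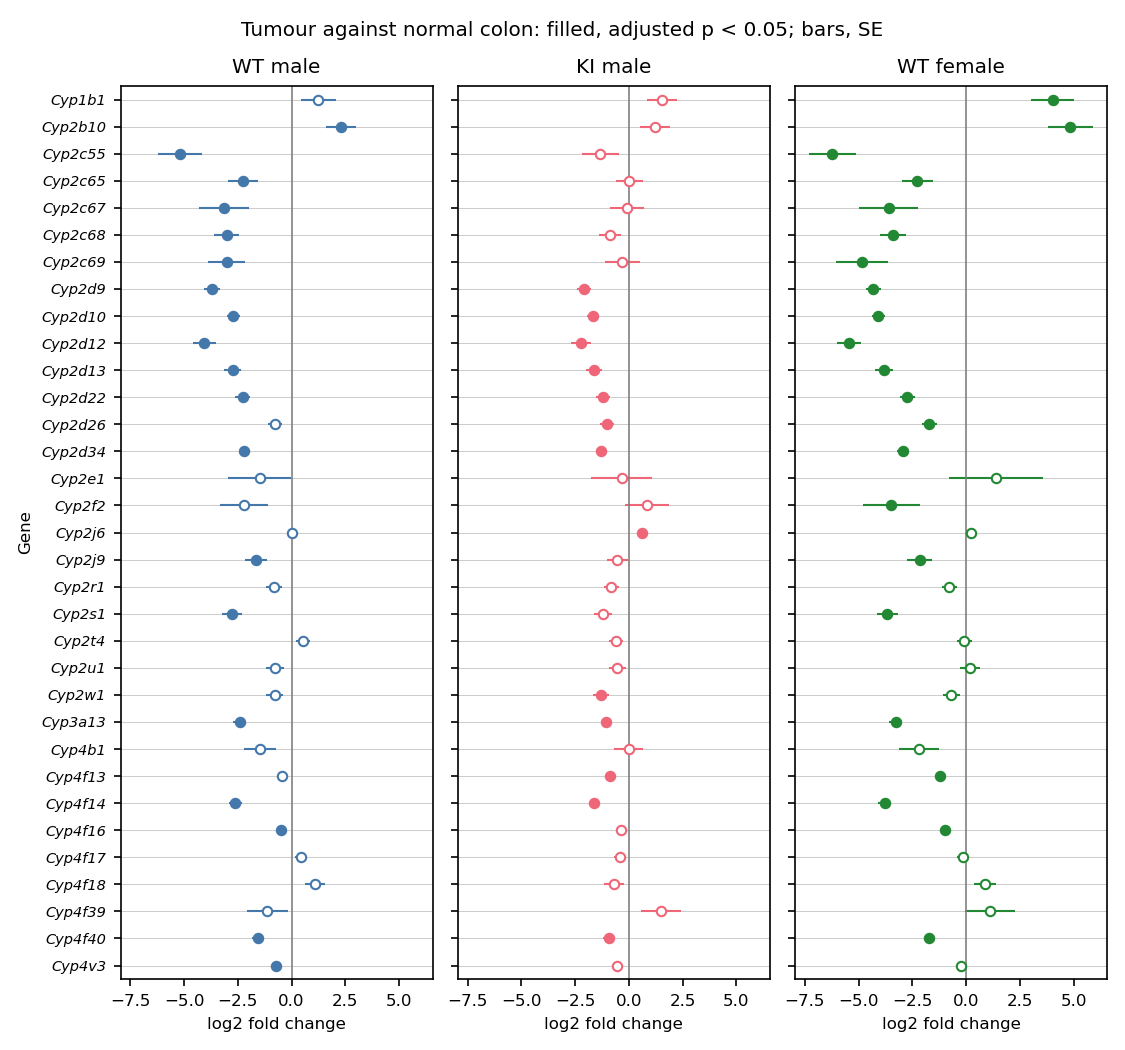
Log2 fold change of tumour against normal colon for the 33 tested P450 genes (rows) in wild-type males, knock-in males and wild-type females (panels), with SE as bars and filled points at an adjusted p under 0.05. Most filled points lie left of 0, and Cyp2c55 has the most negative value in both wild-type panels (-5.17 and -6.21).

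Cyp3a13, an intestinal member of the main drug-oxidising family, was at 63.6, 59.7 and 101 CPM in wild-type male normal colon and 11.9, 13.7 and 16.4 CPM in tumours. In wild-type females the values were 131, 126 and 105 CPM and 7.20, 17.3 and 12.9 CPM, and in knock-in males 51.1, 71.7 and 76.3 CPM and 36.1, 37.2 and 23.1 CPM. Its groups did not overlap in any background, and the log2 fold changes were -2.41 (SE 0.29, adjusted p 1.72e-05), -3.27 (SE 0.30, adjusted p 3.55e-07) and -1.04 (SE 0.27, adjusted p 0.0137). The knock-in value lost its call without normal replicate 3 or tumour replicate 3, and the value in wild-type females was -4.05 without libraries 152 to 154.

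Among the fatty acid hydroxylases of family 4, Cyp4f14, known for leukotriene B4 hydroxylation, was at 32.9, 30.5 and 53.5 CPM in wild-type male normal colon and 6.19, 4.37 and 7.74 CPM in tumours. It was at 84.7, 80.6 and 72.6 CPM and 5.98, 5.97 and 5.33 CPM in wild-type females and at 34.3, 44.8 and 58.2 CPM and 21.8, 12.2 and 11.1 CPM in knock-in males, without overlap. Cyp4f14 had log2 fold changes of -2.61 (SE 0.29, adjusted p 7.32e-06), -3.78 (SE 0.30, adjusted p 9.45e-08) and -1.60 (SE 0.26, adjusted p 0.00222). Cyp4f40 also fell, with -1.57, -1.71 and -0.93, and its knock-in call was lost without normal replicate 3, tumour replicate 2 or tumour replicate 3. That call was also lost with only the compared groups, with the offset for GC content and length, and without libraries 152 to 154. Cyp4f16 passed in both wild-type comparisons (-0.50 and -0.98), and Cyp4f13 in wild-type females (-1.19) and knock-in males (-0.87). Cyp4f17, Cyp4f18, Cyp4f39 and Cyp4b1 did not pass in any of the 3 comparisons, and Cyp4v3 passed in wild-type males (-0.72). Of these calls, Cyp4f13 in knock-in males was lost without normal replicate 3, and in wild-type males Cyp4f16 was lost without normal replicate 3 or tumour replicate 2 and Cyp4v3 without normal replicate 3 or tumour replicate 3. Within the P450 transcripts, the share of Cyp4f genes went from 14.7% ± 3.94 (SD, n = 3) in the normal colon of wild-type males to 32.3% ± 1.69 (SD, n = 3) in wild-type male tumours, and from 14.7% ± 3.70 (SD, n = 3) to 33.9% ± 6.21 (SD, n = 3) in wild-type females, without overlap and without a test. In knock-in males it was 20.8% ± 1.52 (SD, n = 3) and 21.5% ± 6.02 (SD, n = 3), which overlapped. The share is taken of a P450 sum that was lower in tumours, and Cyp4f14, Cyp4f16 and Cyp4f40 themselves fell in wild-type tumours.

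The 5 tested Cyp2c genes, a subfamily that makes epoxides and hydroxy acids from arachidonic acid, fell in the wild-type tumours of both sexes and did not pass in knock-in males, but 3 of them lost calls with single libraries left out. Cyp2c55 was at 165, 237 and 742 CPM in wild-type male normal colon and 10.7, 11.1 and 10.04 CPM in tumours, for which the log2 fold change was -5.17 (SE 1.03, adjusted p 0.00144). In wild-type females it was at 52.8, 983 and 443 CPM and 1.09, 15.6 and 3.04 CPM, with -6.21 (SE 1.08, adjusted p 0.000241). Knock-in males had 85.4, 88.4 and 92.4 CPM in normal colon and 41.3, 50.5 and 13.5 CPM in tumours, which did not overlap, with -1.33 (SE 0.86, adjusted p 0.282) on the log2 scale. The normal level itself was uneven, with wild-type female replicate 1 far below the others of its group. The Cyp2c55 value was -4.25 in wild-type males without normal replicate 3. In wild-type females it was -5.21 without normal replicate 2, -7.84 without tumour replicate 2 and -8.78 without libraries 152 to 154, and the call held in each. Cyp2c68 had log2 fold changes of -3.01 and -3.39 in wild-type males and females and -0.88 in knock-in males (adjusted p 0.237). Cyp2c65 had -2.25, -2.26 and 0.02 (adjusted p 0.987) in the same order. In wild-type females Cyp2c68 and Cyp2c65 were at -4.74 and -4.45 without tumour replicate 2, and at -4.93 and -3.72 without libraries 152 to 154. The Cyp2c65 call was lost without tumour replicate 1 or 3 in wild-type females, without normal replicate 3, tumour replicate 1 or tumour replicate 3 in wild-type males, and in females with the covariate for libraries 152 to 154 (adjusted p 0.146). Cyp2c67 and Cyp2c69 had few counts. In wild-type female tumours Cyp2c67 and Cyp2c69 had at most 1 count per library, which puts Cyp2c67 at least 1.72-fold lower than in normal colon, and Cyp2c69 at least 4.27-fold lower. Cyp2c67 was at least 1.59-fold lower in wild-type male tumours, where it had at most 2 counts. The Cyp2c67 call was lost in wild-type males without normal replicate 3 or any 1 tumour replicate, and with 7 of the other alternatives. Among these was the replicate number as a block, with -2.97 and an edgeR adjusted p of 0.0707. In wild-type females the Cyp2c67 call was lost without normal replicate 1 or 3 or tumour replicate 1 or 3, and with libraries 152 to 154 left out or given a covariate. The Cyp2c69 call was lost in wild-type males without normal replicate 3 or tumour replicate 3 (adjusted p up to 0.0613), and in wild-type females with the covariate for libraries 152 to 154 (adjusted p 0.0729).

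The 250 bases upstream of the start site are shown for Cyp2c65, Cyp2c68 and Cyp2c69, which were called lower in tumours of wild-type males and females in the fit of all 21 libraries. Capitals mark the letters CAAAGTCCA, an element bound by the nuclear receptor HNF4A (RefSeq, GRCm38.p6; chr19:39060756-39061005 plus strand, chr19:39741102-39741351 minus strand and chr19:39886770-39887019 minus strand).
Cyp2c65: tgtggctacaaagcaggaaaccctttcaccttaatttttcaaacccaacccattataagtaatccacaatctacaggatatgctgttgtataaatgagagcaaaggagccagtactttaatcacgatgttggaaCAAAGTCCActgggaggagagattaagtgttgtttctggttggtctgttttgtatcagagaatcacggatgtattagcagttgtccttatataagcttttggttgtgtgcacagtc
Cyp2c68: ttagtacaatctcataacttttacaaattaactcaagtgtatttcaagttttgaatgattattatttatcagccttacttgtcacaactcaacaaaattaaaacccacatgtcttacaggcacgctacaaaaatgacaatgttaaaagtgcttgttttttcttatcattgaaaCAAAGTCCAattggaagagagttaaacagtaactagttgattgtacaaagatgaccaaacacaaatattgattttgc
Cyp2c69: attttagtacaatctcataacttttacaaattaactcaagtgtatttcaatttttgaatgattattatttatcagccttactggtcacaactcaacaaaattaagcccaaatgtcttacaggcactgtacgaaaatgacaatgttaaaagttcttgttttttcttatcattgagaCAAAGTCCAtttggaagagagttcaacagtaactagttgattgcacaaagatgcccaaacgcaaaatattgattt
With both strands searched, the element was present in 8 of the 62 members with a RefSeq promoter (12.9%), against 122 of 27025 genes (0.451%). Members of the tested set with it were Cyp2c65, Cyp2c67, Cyp2c68 and Cyp2c69, and copies of 1 array share sequence. It was picked, after its matches were seen, from 9 patterns searched on both strands. The others were CAAAGTNCA, which overlaps it (19.4% of members, 1.40% of genes), TATAAA (38.7%, 14.3%), TTTATNG (12.9%, 11.3%), GCGTG (19.4%, 30.9%), TNGCGTG, which holds GCGTG (1.61%, 4.76%), GTTAAT (14.5%, 7.49%), AGGTCA (25.8%, 15.8%) and a longer HNF1 element, found in 0 members and 0.0666% of genes. Hnf4a itself had log2 fold changes of -1.12, -1.45 and -0.52 in the wild-type male, wild-type female and knock-in male tumours, each past the threshold. Cyp2c55, Cyp2d9, Cyp2d10 and Cyp4f14, which also fell in wild-type tumours, had no CAAAGTCCA in the bases searched. A part of Hnf4a in the P450 results was not tested. A match is a description of the letters only.

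Cyp2s1, an epithelial P450 outside the liver, was at 93.7, 70.5 and 145 CPM in wild-type male normal colon and 12.1, 12.2 and 20.7 CPM in tumours (-2.76, SE 0.46, adjusted p 0.000329). In wild-type females it was at 143, 71.4 and 151 CPM and 4.07, 18.2 and 6.31 CPM (-3.67, SE 0.48, adjusted p 1.48e-05). In knock-in males it was at 69.7, 91.9 and 94.4 CPM and 24.6, 53.2 and 33.9 CPM, which did not overlap, with -1.19 (SE 0.43, adjusted p 0.0575). In wild-type females the Cyp2s1 value was -4.54 without tumour replicate 2 and -4.88 without libraries 152 to 154. Cyp2j9 fell in wild-type males (-1.67) and females (-2.15). The male call was lost without normal replicate 1 or tumour replicate 3 and was at -2.29 without tumour replicate 1, and the female call was lost without libraries 152 to 154. Cyp2w1, known from human colorectal tumours, passed in knock-in males (-1.29, adjusted p 0.0232), with -0.78 in wild-type males and -0.68 in wild-type females, which did not pass; the interaction between genotypes was -0.51 (adjusted p 0.57). The knock-in call was lost without normal replicate 3 or tumour replicate 1.

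Few members rose. Cyp2b10, the classic target of the constitutive androstane receptor, was at 6.24, 2.85 and 0.796 CPM in wild-type male normal colon and 10.2, 18.04 and 22.1 CPM in tumours, a rise of 2.30 (SE 0.70, adjusted p 0.0164) on the log2 scale. In wild-type females it was at 0.169, 0 and 0.155 CPM and 2.31, 3.63 and 5.98 CPM (4.84, SE 1.05, adjusted p 0.00104), and in knock-in males at 5.61, 0.823 and 2.33 CPM and 5.17, 3.14 and 11.9 CPM (1.22, SE 0.70, adjusted p 0.219). Wild-type tumours lay above normal colon in both sexes without overlap, while knock-in males overlapped. Wild-type female normal libraries held 4, 0 and 1 counts of Cyp2b10, so the size of the female rise rests on few reads. The wild-type male call was lost without normal replicate 2, normal replicate 3 or tumour replicate 3, and its value was 3.13 without normal replicate 1. In wild-type females the value was 5.57 without normal replicate 1, 4.07 without libraries 152 to 154 and 3.86 with a covariate for them. Cyp2j6, a fatty acid epoxygenase, was at 36.3, 42.2 and 24.9 CPM in knock-in male normal colon and 56.01, 54.8 and 49.6 CPM in tumours (0.63, SE 0.19, adjusted p 0.0239), and that call was lost without either of normal replicates 1 and 3 or tumour replicates 1 and 2.

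**Figure D3:**
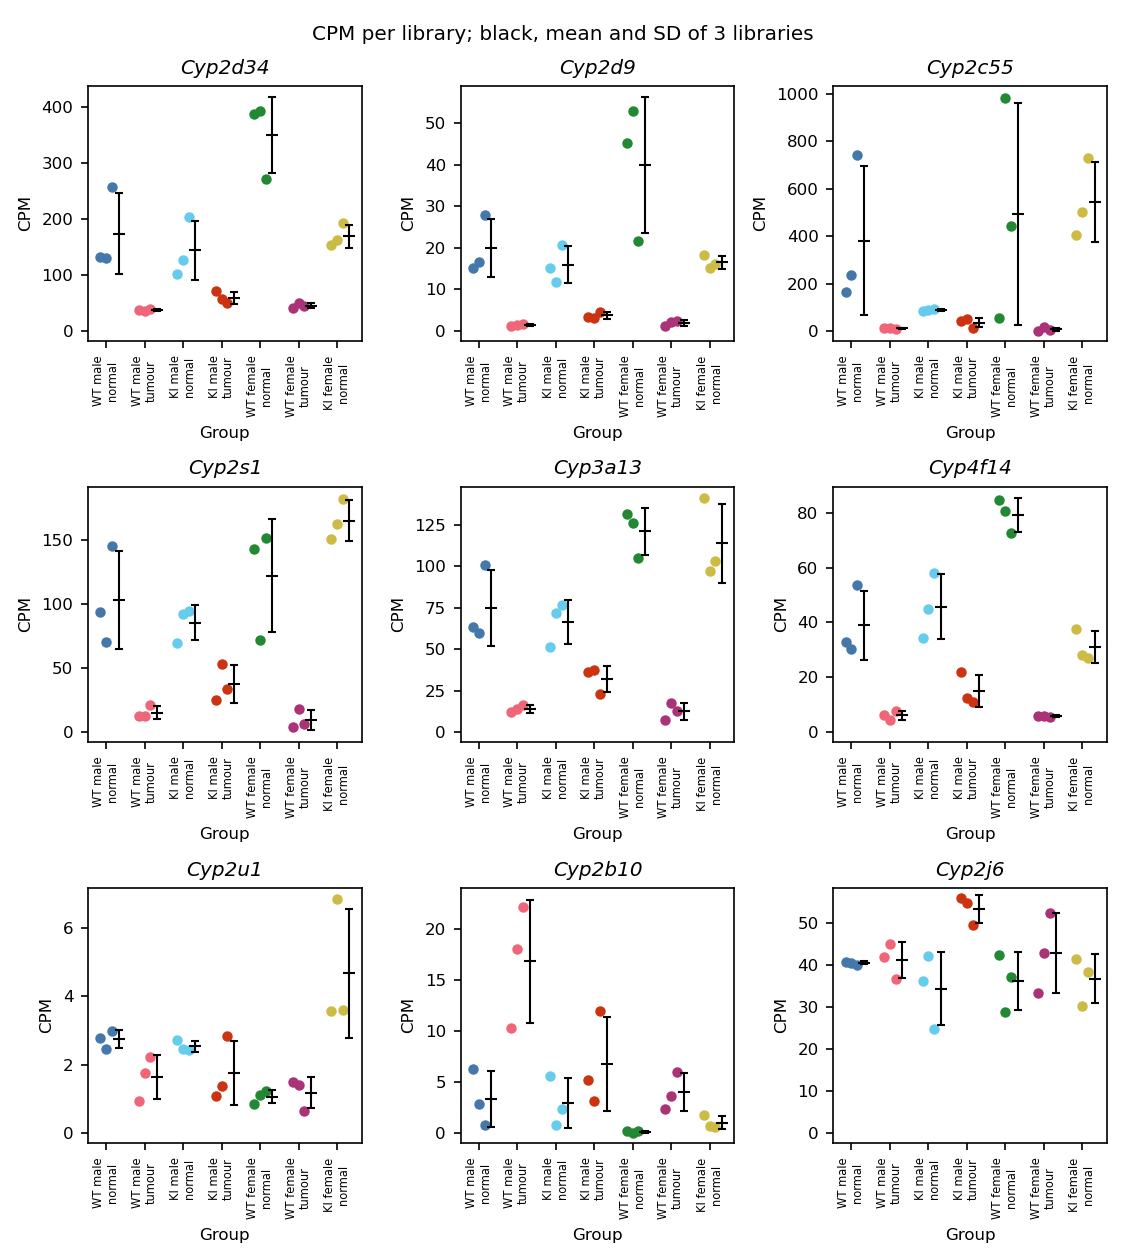
CPM of 9 P450 genes in every library of the 7 groups, with the mean and SD of 3 libraries in black. Cyp2d34, Cyp2d9, Cyp2c55, Cyp2s1, Cyp3a13 and Cyp4f14 are lower in tumours, Cyp2b10 is higher in wild-type tumours, and Cyp2u1 is highest in knock-in female normal colon.

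The genes best known for activating carcinogens had few counts. Cyp2e1 had 145 counts in the 21 libraries together. Its raw counts in wild-type male normal colon were 53, 15 and 0, and in knock-in males 25, 2 and 0 in normal colon and 24, 0 and 2 in tumours. In CPM, the highest library reached 2.50, and knock-in female normal colon had no counts, which allows up to 3 counts per library. The adipocyte markers, 6 genes, also summed highest in the first replicates of wild-type male normal colon (11.3 CPM) and knock-in male normal colon (12.99 CPM). They stood at 3.82 CPM in wild-type male normal replicate 2 and 3.54 CPM in knock-in male normal replicate 3. In knock-in male tumour replicate 1 they stood at 2.04 CPM. Their part in the Cyp2e1 values was not tested. None of the 12 comparisons called Cyp2e1, and its tumour effect in wild-type males was -1.49 (SE 1.48, adjusted p 0.464). Cyp1a1 and Cyp1a2, the classic dioxin-inducible genes, had at most 5 counts and at most 1 count in a library.

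**Figure D4:**
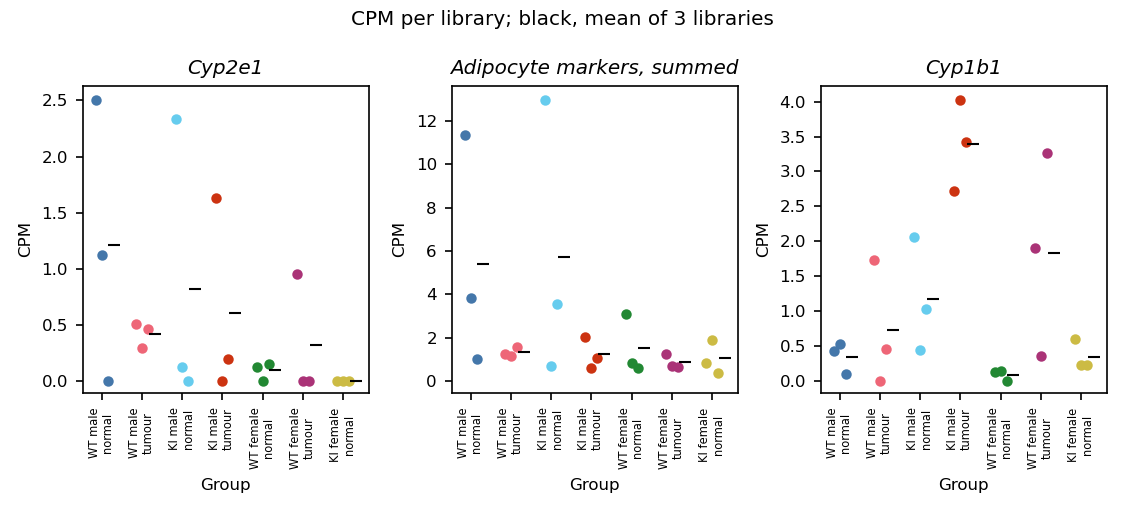
CPM of Cyp2e1, of 6 adipocyte markers summed and of Cyp1b1 in every library, with the group mean in black. Cyp2e1 and the adipocyte markers are highest in the first replicates of wild-type and knock-in male normal colon, and Cyp1b1 is highest in knock-in male tumours.

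Cyp1b1, an aryl hydrocarbon receptor target outside the liver, was at 0.127, 0.139 and 0 CPM in wild-type female normal colon and 1.90, 0.351 and 3.26 CPM in tumours. Normal libraries were at or under 3 counts, and tumour replicate 2 also held only 3. Cyp1b1 was at least 5.46-fold higher in the tumour mean, a bound carried by tumour replicates 1 and 3. Its edgeR adjusted p was 0.00277 (0.0217 without tumour replicate 3). In knock-in males it was at 2.06, 0.443 and 1.04 CPM and 2.72, 4.02 and 3.43 CPM (1.55, SE 0.70, adjusted p 0.12), and in wild-type males the log2 fold change was 1.25 (SE 0.83, adjusted p 0.256). Cyp2f2, known from club cells of the lung, ranged from 0.136 to 154 CPM over all libraries. Knock-in male tumour replicate 2 held 2597 counts, and the fall in wild-type females (-3.47, SE 1.31, adjusted p 0.0392) lost its call without any 1 of the 6 libraries compared.

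Whether tumours of the genotypes departed from normal colon to a different extent was tested in males as an interaction. By edgeR it called 0 of the 33 members, against 1.51% of all genes, 1.14% with a higher value in knock-in mice and 0.37% with a lower one. Without knock-in normal replicate 2 or tumour replicate 3 it called 1. At an unadjusted edgeR p under 0.05 there were 18 members, against 25.2% of all genes. DESeq2 called 4 members, but its share of all genes was not counted, and the edgeR share does not apply to these 4. Interaction values were 3.84 (SE 1.27, adjusted p 0.0928) for Cyp2c55, 1.37 (SE 0.39, adjusted p 0.0632) for Cyp3a13 and 1.61 (SE 0.48, adjusted p 0.0716) for Cyp2d9. The sex interaction in wild-type mice also called 0 members by edgeR (5 unadjusted, against 13.8% of all genes unadjusted). Of all genes edgeR called 1.12%, 0.929% with the more positive effect in females and 0.195% with the more negative. Without wild-type male normal replicate 3 edgeR called 5 members. DESeq2 called 1 member in the sex interaction, again without a share of all genes. Smooth muscle and colonocyte markers were not called in either interaction.

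Male tumours of the genotypes were then compared directly. Of 33 members 3 were higher in knock-in tumours and 0 lower (14 at an unadjusted p under 0.05, where 32.6% of all genes were), a share of 9.09% against 9.3% of all genes called higher and 5.23% lower, so the count of calls is near that of all genes. Cyp3a13 was at 11.9, 13.7 and 16.4 CPM in wild-type and 36.1, 37.2 and 23.1 CPM in knock-in tumours (1.20, SE 0.28, adjusted p 0.0144). Cyp4f14 was at 6.19, 4.37 and 7.74 CPM and 21.8, 12.2 and 11.1 CPM (1.25, SE 0.28, adjusted p 0.012), and Cyp2d9 at 1.30, 1.46 and 1.75 CPM and 3.47, 3.14 and 4.60 CPM (1.30, SE 0.38, adjusted p 0.0331). In each of the 3 genes all knock-in tumours lay above all wild-type tumours. The median log2 fold change of the members was 0.68, against 0.05 for all genes. The Cyp2d9 call was lost in 12 of 17 alternatives. Among these were omission of any 1 of the 6 libraries, only the compared groups, the replicate block and the covariate for libraries 152 to 154. The Cyp3a13 call was lost without wild-type replicate 1 or knock-in replicate 2. It was also lost with the offset for GC content and length, alone or with the block. That of Cyp4f14 was lost without replicate 1 of either genotype. Without wild-type tumour replicate 1 there were 0 calls, without knock-in tumour replicate 2 there was 1, and without knock-in tumour replicate 1 there were 5. Of the 7 tested colonocyte markers 1 was higher in knock-in tumours, and 0 of 6 smooth muscle markers passed.

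In male normal colon 0 members passed between the genotypes in edgeR (4 unadjusted, against 3.34% of all genes unadjusted, and 0 by DESeq2), where 0.0126% of all genes were called, 0.00628% higher and 0.00628% lower. In female normal colon 2 members were higher and 5 lower in knock-in mice (21.2% called), against 16% of all genes, 8.97% higher and 7% lower. Cyp2u1, a long-chain fatty acid hydroxylase, was at 0.845, 1.11 and 1.24 CPM in wild-type and 3.57, 6.86 and 3.60 CPM in knock-in females (2.16, SE 0.42, adjusted p 0.00265). Cyp4v3, related to the human fatty acid hydroxylase CYP4V2, was at 13.99, 9.48 and 18.1 CPM and 24.5, 21.8 and 23.2 CPM (0.74, SE 0.21, adjusted p 0.023). The lower genes were Cyp4f14 (-1.35, SE 0.26, adjusted p 0.00219), Cyp2d9 (-1.28), Cyp2d34 (-1.05), Cyp4f40 (-1.01) and Cyp2d10 (-0.91). Cyp4f14 was at 84.7, 80.6 and 72.6 CPM in wild-type and 37.7, 28.2 and 27.1 CPM in knock-in females, without overlap. Endothelial markers (5 of 6 higher), fibroblast markers (3 of 6 higher), smooth muscle markers (3 of 6 higher) and mesothelial markers (3 of 5 lower) also differed between these groups, and their part in the P450 results was not tested. Without wild-type replicate 2 there were 2 calls, which left Cyp2u1 and Cyp4f14, and without wild-type replicate 1, knock-in replicate 1 or the unnumbered knock-in replicate a there were 4.

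**Figure D5:**
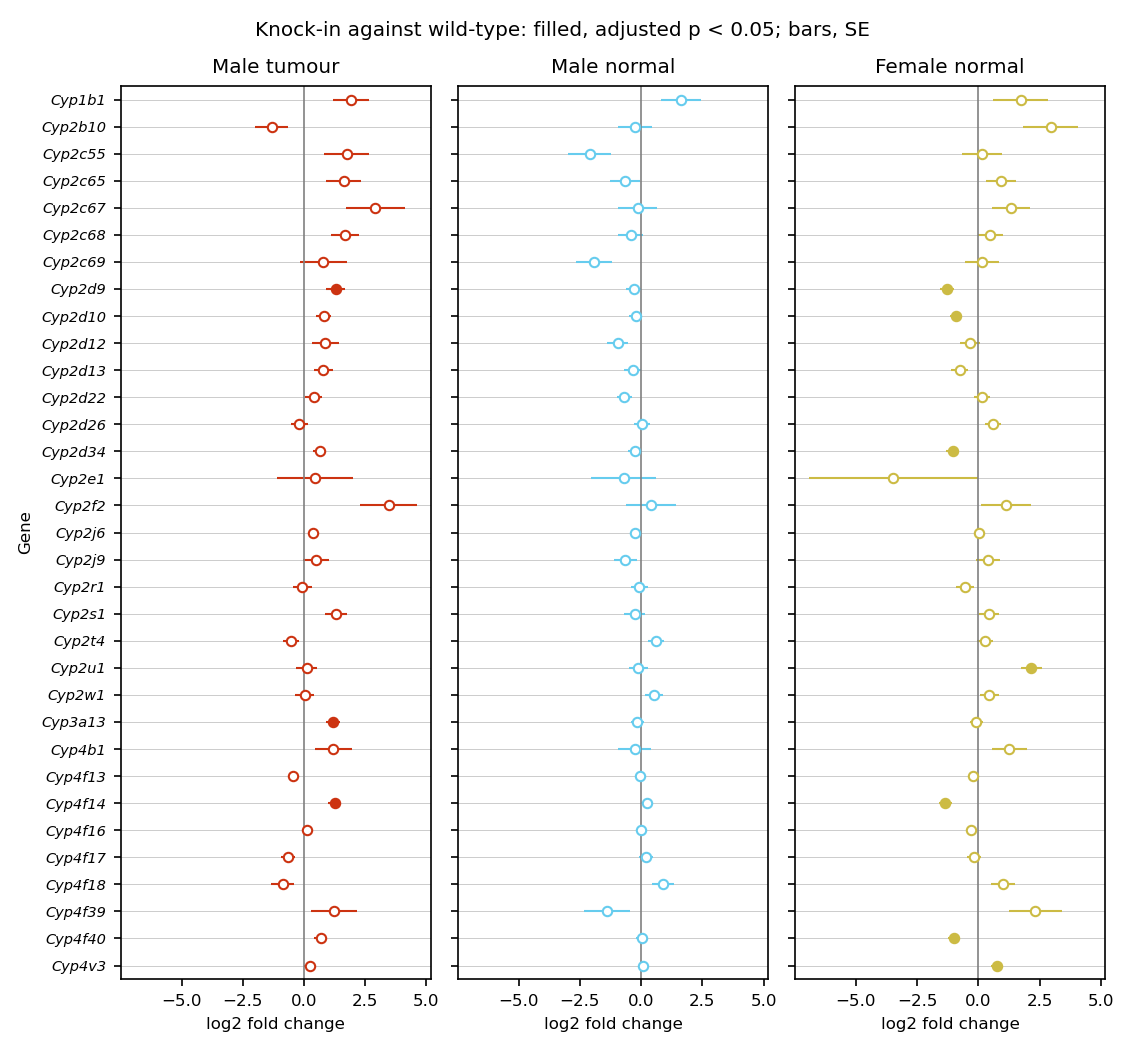
Log2 fold change of knock-in against wild-type for the 33 tested P450 genes (rows) in male tumours, male normal colon and female normal colon (panels), with SE as bars and filled points at an adjusted p under 0.05. Male normal colon has no filled point, male tumours have 3 and female normal colon 7.

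The effect of genotype in normal colon was also tested for a difference between the sexes. Of the 33 members 1 had the more positive effect in females, Cyp2u1, and 1 the more negative, Cyp4f14, a share of 6.06% against 2.54% of all genes, 1.76% more positive and 0.778% more negative. Cyp2u1 in normal colon was at 2.79, 2.47 and 2.98 CPM in wild-type and 2.71, 2.47 and 2.42 CPM in knock-in males, which overlapped. Its difference between the sexes in the knock-in effect was 2.27 (SE 0.57, adjusted p 0.0409), and that of Cyp4f14 was -1.59 (SE 0.36, adjusted p 0.0254). Neither member was called without wild-type female replicate 1 or 2, wild-type male replicate 1, knock-in male replicate 2 or 3, or the unnumbered knock-in female replicate a. Without wild-type male replicate 3 or the unnumbered replicate b there was 1 call. The Cyp2u1 call was also lost without knock-in male replicate 1, where Cyp4f14 and 1 other member passed.

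Wild-type females were compared with wild-type males in normal colon, a comparison that shares the female normal libraries with the preceding one. There 5 members were higher and 2 lower in females (21.2% called), against 15.9% of all genes, 5.74% higher and 10.2% lower. Cyp2d10 (1.16, SE 0.26, adjusted p 0.00703), Cyp4f14 (1.03), Cyp2d34 (1.02), Cyp2d9 (1.02) and Cyp4f16 (0.52) were the higher genes. Cyp2b10 was lower in females (-4.61, SE 1.04, adjusted p 0.00729), and so was Cyp2u1 (-1.40, SE 0.42, adjusted p 0.0308). The Cyp2b10 value was -5.34 without female replicate 1 and -3.77 without male replicate 1. The female libraries held 4, 0 and 1 counts of Cyp2b10, so the size of its difference rests on few reads. All 6 tested endothelial markers, 3 of 6 fibroblast markers and 2 of 6 smooth muscle markers were lower in these female libraries, and 1 of 7 colonocyte and 1 of 5 mesothelial markers higher. Their part in these results was not tested. Without male normal replicate 1 or 2 there were 2 calls, and without female normal replicate 1 or 2 there were 3. Between the sexes edgeR called 0 members in wild-type tumours (4 unadjusted, against 21% of all genes unadjusted). Of all genes 0.86% were called there, 0.402% higher and 0.458% lower. In knock-in normal colon edgeR also called 0 members (10 unadjusted, against 15.3% of all genes unadjusted). Of all genes 0.584% were called there, 0.182% higher and 0.402% lower. DESeq2 called 1 member in each, and its share of all genes was not counted.

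The other genes of oxidation and conjugation were counted for comparison. Of all tested genes, 19.3% fell and 16.5% rose in wild-type male tumours, and 24% fell and 25% rose in wild-type female tumours. In knock-in male tumours 9.97% fell and 10.4% rose. Between genotypes in male tumours 9.3% were higher and 5.23% lower in knock-in mice. Of 45 tested conjugating, hydrolysing and transport genes, 32 fell and 3 rose in wild-type male tumours, 33 fell and 4 rose in wild-type female tumours, and 14 fell and 1 rose in knock-in male tumours. In knock-in against wild-type male tumours 15 were higher and 1 lower. The bilirubin-conjugating gene Ugt1a1 had log2 fold changes of -2.33, -3.17 and -0.43 (the last with an adjusted p of 0.521) in wild-type male, wild-type female and knock-in male tumours. Of 20 regulators, 11, 15 and 10 fell and 2, 1 and 1 rose in the same order. Nr1i2, the pregnane X receptor gene, had log2 fold changes of -1.76, -2.01 and -0.99, and Vdr, the vitamin D receptor gene, -2.70, -3.10 and -1.49. Ahr, the aryl hydrocarbon receptor gene, rose by 0.56, 0.76 and 0.47. The 15 genes of redox partners and haem supply showed 3, 2 and 0 falls and 2, 3 and 2 rises, among them Hmox1, which breaks down haem (3.04, 3.18 and 1.74), whereas P450 reductase (Por) did not pass (0.31, 0.02 and -0.09). Of 12 tested P450 genes outside families 1 to 4, 1, 0 and 1 fell and 0, 3 and 0 rose.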

How the data were processed

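Colon RNA without its ribosomal part was copied from random primers into sequencing libraries, per the labels' protocols. Trimmomatic, HISAT2, featureCounts, DESeq2 and the build mm10 are named in the submitters' processing notes, without versions. The strand setting and the treatment of reads shared between copies are not given in the sources used here. The deposited table holds raw counts per gene that the authors made with featureCounts, per the file headers. The authors' DESeq2 table was not used. A name that heads 2 columns of knock-in female normal colon leaves these as unnumbered replicates, called a and b. No per-sample column was left out.

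The members and gene lists were chosen with earlier results of these data known. Named genes are Cyp1a1, Cyp1a2, Cyp1b1 and Cyp2e1, the 12 members of highest mean CPM, and up to 12 called members per comparison with a mean of at least 20 counts in a group (every called member where 5 or fewer passed). Others named were chosen after their values were seen, as were the printed sequences.

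The test was edgeR 4.0.16's quasi-likelihood F test (R 4.3.3, two-sided) on counts of all 21 libraries, with TMM scaling, filterByExpr by group, robust fitting, 1 coefficient per group, and Benjamini-Hochberg adjustment over 15936 genes at 0.05, in 12 comparisons of which 3 were interactions. It was also run on counts simulated from its own fitted spread, which hold no outlying library and no change of cell mixture. SE was derived from the log2 fold change and F. Folds against a group at or under 3 counts per library were computed against that floor, which covers counting error only. Gene coordinates come from GENCODE M21 (GRCm38), in which 73 of 75 symbols matched, and 62 members had a RefSeq promoter (GRCm38.p6). Alternatives were DESeq2 size factors, no count filter, the DESeq2 1.42.0 Wald test, only the compared groups, the replicate number as a block, a covariate for the libraries numbered 152 to 154, and omission of each replicate. Library totals, an offset for GC content and length (alone and with the block), omission of libraries 152 to 154, and the 18 numbered libraries without the block were chosen after seeing the data.

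The labels do not say whether same-numbered libraries came from the same animal. In the wild-type male tumour comparison the deviations of same-numbered libraries from their group means correlated at 0.169, 0.174 and 0.215. Replicate 1 of male normal colon correlated at 0.461 between the genotypes, where no animal can be shared. Replicates 2 and 3 of male normal colon correlated at -0.206 and -0.0697 between the genotypes.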

Additional observations from a re-analysis of the deposited data

Results flagged for a closer look

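For 2 members the knock-in effect in normal colon was not the same in females and males by the interaction test of edgeR with Benjamini-Hochberg adjustment. Cyp4f14 had a difference, female minus male, of -1.5893 on the log2 scale (SE 0.36, adjusted p 0.0254), with a knock-in effect of -1.35 in females and 0.24 in males. Cyp2u1 had a difference of 2.2725 (SE 0.57, adjusted p 0.0409), with 2.16 in females and -0.12 in males. Over the alternatives the largest adjusted p was 0.0838 for Cyp4f14 and 0.130 for Cyp2u1, and the Cyp4f14 call was lost in 7 of 20 alternatives and the Cyp2u1 call in 9 of 20. Both were lost without wild-type female replicate 1 or 2, wild-type male replicate 1, knock-in male replicate 2 or 3, or the unnumbered knock-in female replicate a. Cyp4f14 was also lost without the unnumbered replicate b, and Cyp2u1 without wild-type male replicate 3, without knock-in male replicate 1 or with the GC and length offset. Wild-type female normal colon also had endothelial markers summed at 52.5 to 81.3 CPM, against 119.7 to 166 CPM in wild-type male normal colon, and their part in these results was not tested.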

How the results depend on the processing

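The numbers of called members kept within 1.5 times the reported ones with DESeq2 size factors, library totals, no count filter and the covariate for libraries 152 to 154. Among the called members, 1056 of 1221 gene and setting combinations kept their call, 165 lost it and 0 reversed, and no called member changed sign with another scaling. Library totals moved the median of all genes by 0.14 in wild-type female tumours and by 0.11 in the sex interaction (log2). When the model held the compared groups alone, 8 members were called in knock-in male tumours, 11 between genotypes in female normal colon (5 higher, 6 lower), 3 between the sexes in wild-type normal colon, 1 in wild-type tumours and 2 in knock-in normal colon. The DESeq2 Wald test called 7 members between genotypes in male tumours, 1 between the sexes in wild-type tumours and 1 in knock-in normal colon, 4 in the genotype interaction and 1 in the sex interaction. Omission of libraries 152 to 154 gave 5 between genotypes in male tumours and 3 in the genotype interaction. The GC and length offset left 1 member in the difference of the knock-in effect between the sexes. In knock-in male tumours this offset lost the calls of Cyp2d22, Cyp2d26, Cyp2j6, Cyp2w1, Cyp4f13 and Cyp4f40. The cause of these changes was not tested. The share of all genes called was counted for the reported fit only, so member counts under an alternative have no such share beside them.

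With the replicate number as a block on the 18 numbered libraries, 18 members were called in wild-type male tumours. Without the block, 18 were called on the same libraries. Cyp2c67 was the call lost in both, and the block changed no other call there. In all 7 comparisons of numbered groups the libraries are known to share only a number. Over all 7, the own number gave the best correlation in 12 of 42 cases, and 5 of 21 pairs correlated over 0.1, the 3 of wild-type male tumours among them. The block called 12 members in knock-in male tumours, 21 in wild-type female tumours and 2 between genotypes in male tumours. With the block and the GC and length offset together, 8 and 1 were called in knock-in male tumours and between genotypes in male tumours. No such fit was made for comparisons with knock-in females, 2 of whose libraries carry no number of their own.

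Leaving out 1 replicate gave 13 to 20 called members in wild-type male tumours, 6 to 13 in knock-in male tumours and 20 to 23 in wild-type female tumours. It gave 0 to 5 between genotypes in male tumours, 2 to 7 in female normal colon and 2 to 9 between the sexes in wild-type normal colon. The genotype interaction ran from 0 to 1, the sex interaction from 0 to 5, and the difference of the knock-in effect between the sexes from 0 to 2. Depth limits Cyp1a1, Cyp1a2, Cyp1b1, Cyp2b10, Cyp2e1, Cyp2c67 and Cyp2c69, which lay at or near 3 counts in several libraries.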
